A study of Homo sapiens with 2 samples.

Results

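Doxorubicin-resistant SUM159 spheroids were compared with paclitaxel-resistant SUM159 spheroids, gene by gene, over the cells that held at least 1000 molecules. SUM159 is a human triple-negative breast cancer cell line, and cells of epithelial-like and of strongly mesenchymal character coexist in it. Of 30122 cell barcodes in the series, 25396 reached 1000 unique molecular identifiers (UMIs, each standing for 1 captured transcript molecule), and 4722 of these belonged to the compared populations: 2558 doxorubicin-resistant and 2164 paclitaxel-resistant cells. Both resistant lines were of the wild-type genotype and had been selected as attached cells with rising doses of their drug over a long period. For doxorubicin, exposure was followed by recovery in medium without the drug. They were then grown as spheroids in Matrigel. The sample label has these spheroids as treated and the series design has them as resistant, and the study's methods place any further treatment after spheroid growth without saying whether these spheroids received drug. Treatment-naïve spheroids of the parental line were tagged and run on the same cartridge, and attached cells of all 3 kinds were run on a second cartridge. Each population existed once, so no test was possible and no p-value is given. All intervals in parentheses are 95% intervals that cover counting error only. The populations were assigned from the names of their matrices, since the labels do not tie tags to files.

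Paclitaxel stabilises microtubules and stalls cells in mitosis, whereas doxorubicin is an anthracycline that intercalates into DNA and traps topoisomerase II. Both are exported by P-glycoprotein, the product of ABCB1, which is a common route to resistance against either drug. Spheroids place cells in contact with matrix and with one another, under gradients of oxygen and nutrients that flat cultures lack. A targeted panel of breast cancer genes was read in each cell, so every statement below is about panel genes.

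The doxorubicin-resistant cells held 10167156 UMIs with a median of 3580.5 UMIs and 131 genes per cell, and the paclitaxel-resistant cells held 8023738 UMIs with medians of 3293 and 123. The 1000-UMI minimum kept 67.7% and 57.7% of their barcodes. GAPDH alone took 21.9% and 17.5% of the UMIs, and the 5 most abundant genes took 54.7% and 57.3%. The 3 spheroid populations shared 0 cell labels with one another. The mesenchymal markers of SUM159 were present in both, with VIM in every cell of each and CD44 in 95.9% and 96.9%, while EPCAM reached only 5.61 and 4.11 CPM (UMIs of a gene per 1000000 UMIs of the population). Free RNA can give UMIs in cells that do not make a transcript, and no other cell type was on the cartridge to measure it. The basal keratin KRT14 gives a scale: it stood at 3032 CPM in treatment-naïve spheroids, and 5.94% of doxorubicin-resistant and 4.30% of paclitaxel-resistant cells held a UMI of it. How much of any share of a few percent came from free RNA was not tested.

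A gene counted as measured when at least 1 of the populations had 50 UMIs, and as higher or lower when its CPM also differed at least 2-fold. Of 250 measured genes, 35 (14.0%) were higher and 13 (5.2%) lower in doxorubicin-resistant than in paclitaxel-resistant spheroids, 48 (19.2%) in all. The median log2 fold of the measured genes was 0.29, and 173 of them lay above 0. Of the 48 called genes 72.9% were thus higher. That share depended on the scaling: unscaled totals gave 56 higher and 6 lower genes (90.3% higher), and scaling by the median gene ratio gave 28 and 21 (57.1%). On the higher side the genes nearest to the threshold were IL18 and SPHK1 inside it, both at 2.04-fold, and IGFBP5 at 1.95-fold and IL1B at 1.91-fold outside it. On the lower side they were TSLP inside it, 2.02-fold lower, and TLR1 outside it, 1.96-fold lower. The size of 21 of the 35 higher and 6 of the 13 lower genes stayed at 2-fold or more in each of 10 alternative treatments of the cells and of the scaling. CDH6, SLIT2, C10orf54, GLI1, PDGFB and EDNRA fell under 2-fold only with unscaled totals, which leave the larger doxorubicin total uncorrected. TNF, ALCAM and PLAU did so only with scaling by the median gene ratio. CCL4, FCGR3A and HLA-DRA are not counted because 1 alternative left them without a fold.

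**Figure D1:**
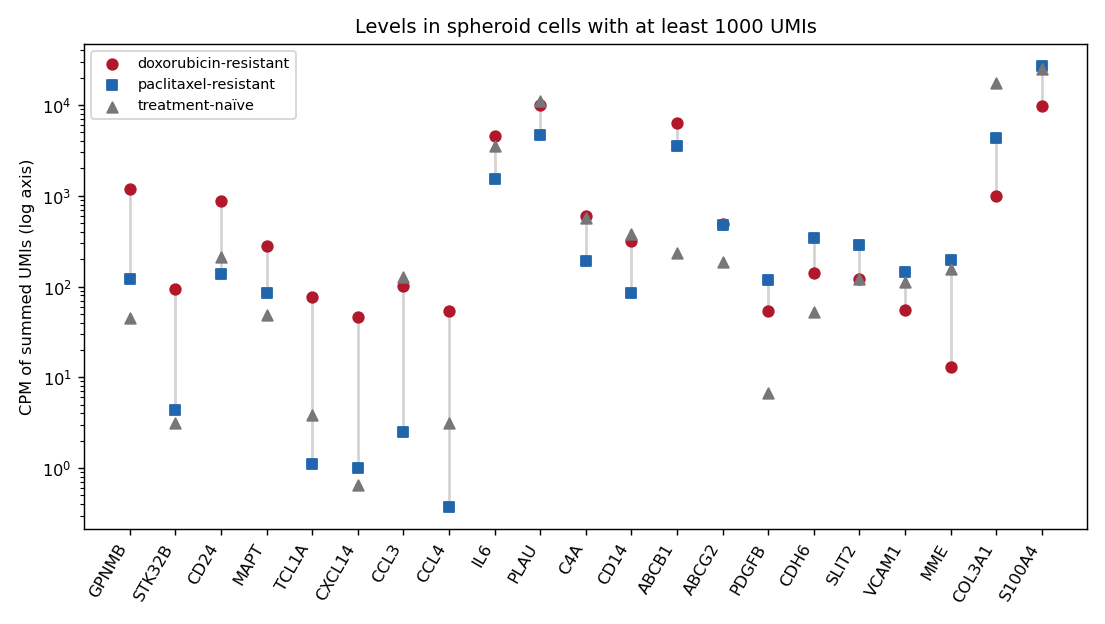
CPM on a log axis for 21 genes in doxorubicin-resistant (circles), paclitaxel-resistant (squares) and treatment-naïve (triangles) spheroid cells, 1 point per population without replicates. Grey lines join the resistant populations: GPNMB stood at 1172 against 122 CPM, MME at 13.1 against 196 CPM, and ABCG2 at nearly one level in both.

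On the doxorubicin side, genes that separated the drugs across many cells included GPNMB, STK32B and CD24. GPNMB encodes a transmembrane glycoprotein of lysosomes and melanosomes that is also found at the surface of triple-negative breast cancers. Its gene lies on chromosome 7, 23246775 to 23275108 of GRCh38, and STK32B, which encodes a serine/threonine kinase, lies on chromosome 4. S100A4 encodes a calcium-binding protein of motile, mesenchymal cells, and CXCL14 a chemokine of epithelia. The RefSeq promoter windows of these 4 genes, from 250 bases before to 50 after the transcription start, are printed because the genes stood far apart between the drugs, GPNMB and STK32B in many cells, CXCL14 in few, and S100A4 in the opposite direction. They were chosen after the values were seen. Capitals mark matches to an AP-1 site (TGAGTCA), an E-box (CATGTG) or a TATA box (TATAAA), each searched on both strands, and matches to different motifs did not overlap.
GPNMB, chr7:23246525-23246824, plus strand of GRCh38.p14: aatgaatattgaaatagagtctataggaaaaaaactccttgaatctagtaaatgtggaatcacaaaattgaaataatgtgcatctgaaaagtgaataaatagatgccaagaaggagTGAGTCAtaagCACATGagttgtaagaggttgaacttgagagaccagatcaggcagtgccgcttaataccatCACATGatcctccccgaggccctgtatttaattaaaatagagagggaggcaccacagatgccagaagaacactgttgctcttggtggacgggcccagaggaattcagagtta
STK32B, chr4:5051230-5051529, plus strand of GRCh38.p14: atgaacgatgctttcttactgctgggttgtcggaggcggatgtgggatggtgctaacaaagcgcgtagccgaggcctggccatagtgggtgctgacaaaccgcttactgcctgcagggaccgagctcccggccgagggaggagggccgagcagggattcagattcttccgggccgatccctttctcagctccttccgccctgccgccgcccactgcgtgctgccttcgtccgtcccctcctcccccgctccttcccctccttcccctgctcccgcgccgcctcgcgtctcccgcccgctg
CXCL14, chr5:135578942-135579241, minus strand of GRCh38.p14: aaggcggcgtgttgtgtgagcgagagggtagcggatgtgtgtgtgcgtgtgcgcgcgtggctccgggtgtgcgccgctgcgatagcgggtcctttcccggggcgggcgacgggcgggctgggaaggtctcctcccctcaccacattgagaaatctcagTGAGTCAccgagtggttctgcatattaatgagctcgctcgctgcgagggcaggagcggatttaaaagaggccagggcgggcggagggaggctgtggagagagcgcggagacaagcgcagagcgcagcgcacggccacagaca
S100A4, chr1:153545757-153546056, minus strand of GRCh38.p14: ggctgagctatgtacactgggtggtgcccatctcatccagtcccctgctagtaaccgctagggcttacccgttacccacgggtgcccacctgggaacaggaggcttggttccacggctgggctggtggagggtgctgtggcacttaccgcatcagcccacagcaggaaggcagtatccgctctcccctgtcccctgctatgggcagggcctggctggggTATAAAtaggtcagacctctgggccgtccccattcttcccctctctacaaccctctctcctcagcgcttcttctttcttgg
The GPNMB window held an AP-1 match that begins at -134 from the start site and E-box matches at -123 and -62. The CXCL14 window held an AP-1 match at -92 and the S100A4 window a TATA match at -31. The STK32B window, around a start inside the annotated gene span of 5019386 to 5500989, held none of these letters. Among 35116 promoter windows of the same length, 4.95% held the AP-1 letters, 11.1% the E-box letters and 11.5% the TATA letters. A match is a description of the letters and was not tied to any factor here. Of the 48 called genes, 32 had a promoter entry.

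GPNMB stood at 1172 CPM (1151 to 1193) in doxorubicin-resistant and 122 CPM (115 to 130.2) in paclitaxel-resistant spheroids, a 9.58-fold difference (8.98 to 10.2). It was found in 57.1% and 14.8% of the cells, and 22.8% against 1.85% of the cells held more than 5 UMIs. STK32B was at 93.6 and 4.36 CPM, 21.5-fold apart (15.3 to 31.0), and was seen in 21.7% and 1.25% of cells. Both genes were lower still in treatment-naïve spheroids, GPNMB at 44.7 CPM and STK32B at 3.15 CPM. After each cell was thinned to 1000 UMIs, which makes depths equal, GPNMB was seen in 38.3% against 7.21% of cells and STK32B in 7.47% against 0.462%.

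CD24, a small mucin-like surface protein used with CD44 to sort breast stem-like cells, differed nearly as widely. It stood at 878 CPM against 138 CPM, 6.36-fold (5.97 to 6.77), and was found in 69.0% and 20.5% of cells. The treatment-naïve level was 209 CPM, close to that of the paclitaxel-resistant cells. MAPT, the microtubule-binding protein tau, reached 279 CPM against 84.7 CPM (3.30-fold, 3.03 to 3.59), in 50.5% and 23.6% of cells. Tau binds microtubules, the structure on which paclitaxel acts, and its treatment-naïve level was 48.7 CPM.

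STAT5A, a transcription factor downstream of prolactin and cytokine receptors, was found in 11.2% of doxorubicin-resistant and 1.80% of paclitaxel-resistant cells, at 32 against 6.23 CPM (5.13-fold, 3.80 to 7.06). The treatment-naïve level, 44.4 CPM, lay above both, so that the paclitaxel-resistant population was the one apart. ALCAM, an adhesion molecule, was 2.19-fold higher (2.06 to 2.33) and was detected in 58.9% against 35.1% of cells. These genes were spread over the population: the 1% of doxorubicin-resistant cells richest in each held 14.6% of the UMIs of GPNMB, 14.4% of those of STK32B and 12.0% of those of CD24. GPNMB, STK32B and CD24 were also apart within each of 3 depth classes of cells. In cells of 1000 to under 2500 UMIs their log2 folds were 2.78, 4.75 and 2.47, and in cells of 5000 or more UMIs they were 3.46, 4.50 and 3.01.

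**Figure D2:**
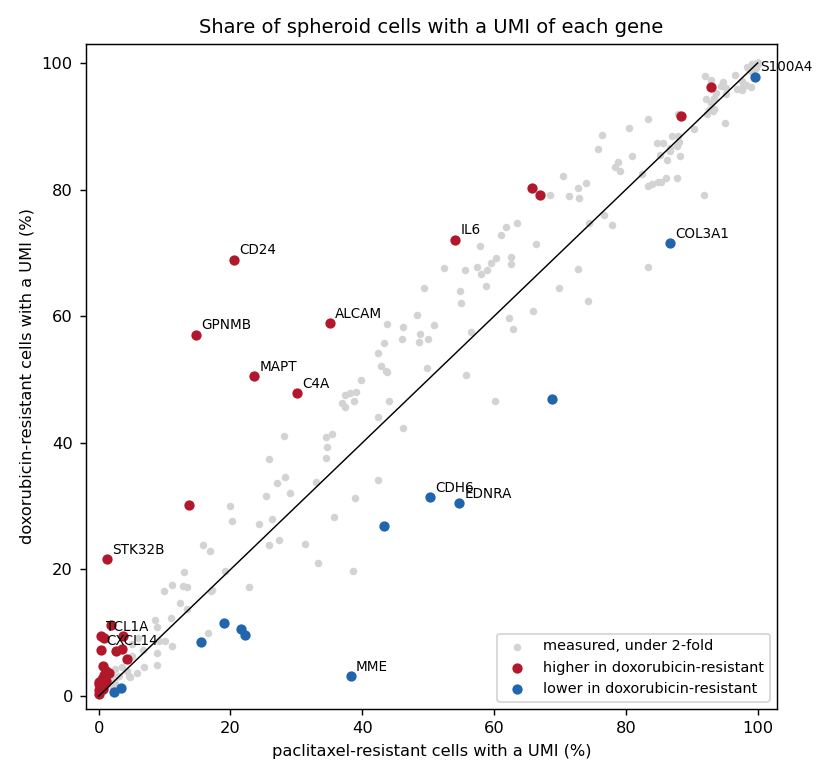
Percent of cells with at least 1 UMI of each measured gene, paclitaxel-resistant on the horizontal and doxorubicin-resistant on the vertical axis, with a line of equality. CD24, GPNMB, ALCAM, MAPT and STK32B lie far above the line, MME, EDNRA and CDH6 far below it, and many higher genes sit in the corner where few cells of either population held a UMI.

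On the paclitaxel side the widest gap was that of MME, the membrane metallo-endopeptidase also known as CD10, which marks myoepithelial cells of the breast. MME stood at 196 CPM (186 to 206) in paclitaxel-resistant and 13.1 CPM (11.0 to 15.5) in doxorubicin-resistant spheroids, 15-fold apart (12.5 to 18.0). It was found in 38.2% and 3.17% of the cells. Treatment-naïve spheroids, at 156 CPM and 33.1% of cells, were much nearer to the paclitaxel-resistant ones. In cells of 5000 or more UMIs, 61.6% of paclitaxel-resistant and 5.32% of doxorubicin-resistant cells held an MME UMI.

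COL3A1, a fibrillar collagen chain, stood at 4328 CPM in paclitaxel-resistant and 988 CPM in doxorubicin-resistant spheroids, 4.38-fold apart (4.28 to 4.48). The median cell held 4 UMIs of it in the first and 1 UMI in the second. In treatment-naïve spheroids COL3A1 was at 17409 CPM, above both, so that each resistant line had less and the doxorubicin-resistant line the least. The gap was wider in shallow cells, with a log2 fold of -2.78 at 1000 to under 2500 UMIs and -1.66 at 5000 or more.

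S100A4 was found in nearly every cell of both populations, and its level differed: 26825 CPM against 9811 CPM, 2.73-fold (2.71 to 2.75), with medians of 63 and 20 UMIs per cell. Its treatment-naïve level was 24877 CPM, again close to that of the paclitaxel-resistant cells. VCAM1, an adhesion molecule induced by inflammatory signals, was at 145 against 55.5 CPM (2.61-fold, 2.36 to 2.89), in 22.2% against 9.70% of cells. CDH6, a cadherin of kidney and mesenchymal tissue, was 2.40-fold higher in paclitaxel-resistant spheroids (2.25 to 2.56), and SLIT2, a secreted axon guidance factor, 2.38-fold (2.22 to 2.55). CDH6 was found in 50.3% of paclitaxel-resistant and 31.4% of doxorubicin-resistant cells, and SLIT2 in 43.3% and 26.9%.

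C10orf54, now named VSIR and encoding the immune checkpoint protein VISTA, was 2.38-fold higher on the paclitaxel side (2.26 to 2.50). GLI1, a transcription factor of the hedgehog pathway, was 2.31-fold higher (2.02 to 2.64), and EDNRA, an endothelin receptor, 2.19-fold (2.05 to 2.33). The EDNRA gap was wider in shallow cells, with a log2 fold of -2.06 at 1000 to under 2500 UMIs. At 5000 or more UMIs it was -0.75, under the 2-fold rule. TSLP, an epithelial cytokine, was 2.02-fold higher (1.74 to 2.35). Beside PDGFB, which follows, the other 2 of the 13 genes were blood cell genes with few UMIs, PTPRC with 58 against 17 UMIs and ITGAX with 88 against 39.

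PDGFB and its receptors all stood higher in paclitaxel-resistant spheroids. PDGFB, the B chain of platelet-derived growth factor, was at 118 against 53.4 CPM (2.21-fold, 1.98 to 2.46), in 19.0% and 11.6% of cells. Both resistant populations were far above the 6.67 CPM of treatment-naïve spheroids. The receptors fell just short of the 2-fold rule, PDGFRA at 7085 against 3728 CPM (1.90-fold, 1.88 to 1.93) and PDGFRB at 1390 against 746 CPM (1.86-fold, 1.81 to 1.92). Both receptor gaps on the paclitaxel side were wider in shallow cells. The log2 folds of PDGFRA and PDGFRB were -1.29 and -1.44 at 1000 to under 2500 UMIs, and -0.71 and -0.52 at 5000 or more. ANGPT1, an angiopoietin ligand, was 1.86-fold higher on the same side (1.60 to 2.15), whereas PDGFA was 1.28-fold higher in doxorubicin-resistant spheroids and VEGFA differed by a factor of 1.02. Over the 10 measured PDGF and angiogenic genes the median log2 fold was -0.011, with 0 higher and 1 lower gene. Over all measured genes the median was 0.29, with 14.0% higher and 5.2% lower.

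**Figure D3:**
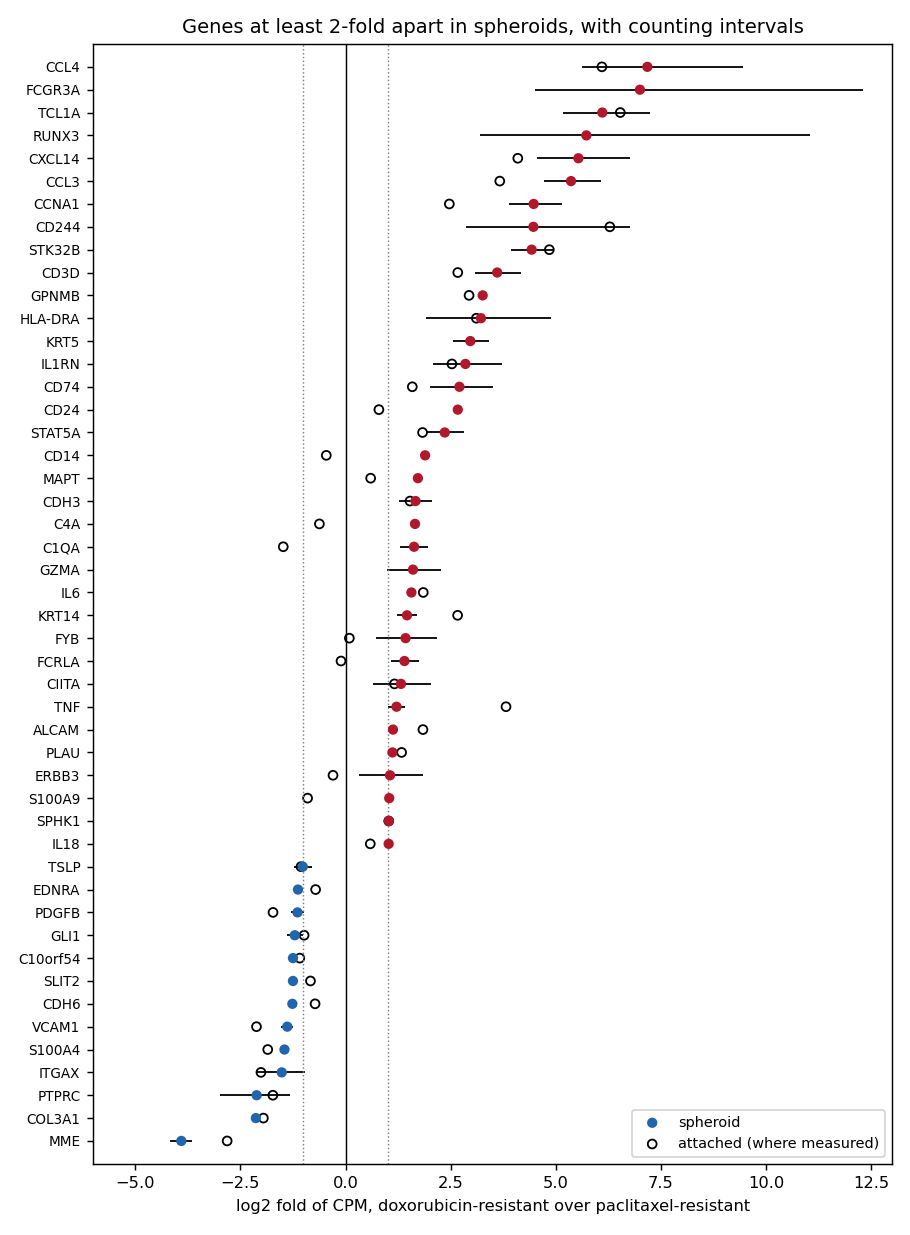
Log2 fold of CPM, doxorubicin-resistant over paclitaxel-resistant, for the 48 genes at least 2-fold apart in spheroids. Filled points are spheroids (red higher, blue lower) with 95% counting intervals, open circles the same ratio in attached cells where it was measured, and dotted lines mark 2-fold. The open circles lie on the same side of 0 for all 13 lower genes, while CD14, C4A, C1QA, FCRLA, ERBB3 and S100A9 lie on opposite sides.

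Neither measured drug efflux gene reached the 2-fold rule. ABCB1 (chromosome 7, 87503017 to 87713295 of GRCh38) stood at 6270 CPM in doxorubicin-resistant and 3540 CPM in paclitaxel-resistant spheroids, 1.77-fold apart (1.75 to 1.80). With unscaled totals the ABCB1 log2 fold was 1.17, past 2-fold. ABCB1 was found in 80.6% (79.0% to 82.1%) of doxorubicin-resistant and 83.4% (81.8% to 85.0%) of paclitaxel-resistant cells. After each cell was thinned to 1000 UMIs the shares were nearly equal, 68.8% and 68.3%. In cells of 1000 to under 2500 UMIs they were 70.8% and 71.4%. At 2500 to under 5000 UMIs they were 82.1% and 86.8%, and at 5000 or more 88.7% and 94.4%, higher with paclitaxel. Over all kept cells the median cell held 7 and 5 ABCB1 UMIs. The upper quartile was 26.75 and 14, so the gap was wide at the upper end of the distribution. Cells without an ABCB1 UMI were shallower in both populations, with medians of 2753 against 3815 UMIs for doxorubicin and 2274 against 3506 for paclitaxel. ABCG2, a related efflux pump, stood at 490 and 473 CPM, a ratio of 1.04 (0.993 to 1.08), in 57.5% and 56.6% of cells. In treatment-naïve spheroids ABCB1 was at 234 CPM and ABCG2 at 185 CPM.

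The genes that set the drugs apart were found in cells with and without ABCB1. GPNMB was at 1256 CPM in doxorubicin-resistant cells without an ABCB1 UMI and at 1156 CPM in those with one, and CD24 at 1035 and 848 CPM. Among paclitaxel-resistant cells, COL3A1 was at 7007 CPM in those without and 3963 CPM in those with ABCB1, and MME at 141 and 203 CPM. The cells without ABCB1 were the shallower ones. COL3A1 in paclitaxel-resistant cells fell from 9191 CPM at 1000 to under 2500 UMIs to 2349 CPM at 5000 or more. The part of depth in the COL3A1 gap was not tested. The drug comparison restricted to cells with an ABCB1 UMI called 34 higher and 13 lower genes, of which 33 and 13 were among the genes above. In the 359 paclitaxel-resistant cells without an ABCB1 UMI, IGFBP3, an insulin-like growth factor binding protein, was at 101 CPM against 8.5 CPM in the others, but these were 97 UMIs in 9 cells, 54 of them in 1 cell.

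Inflammatory genes were among the higher genes. Of the 18 measured cytokines and chemokines, 8 were higher and 1 lower, with a median log2 fold of 0.73 against 0.29 for all measured genes. Among all measured genes 14.0% were higher and 5.2% lower. Of the 8, CCL3, CCL4 and IL1RN had 91.6%, 100% and 69.3% of their doxorubicin UMIs in the 1% of cells richest in each. IL6, the main cytokine of STAT3 signalling, stood at 4493 against 1518 CPM (2.96-fold, 2.90 to 3.02), in 72.1% and 54.1% of cells. IL18 reached 1073 against 527 CPM, and S100A9, a calprotectin subunit, 22941 against 11164 CPM (2.05-fold, 2.04 to 2.07). The S100A9 difference was under 2-fold in 6 of 10 alternatives and that of IL18 in 4. TNF was at 72.8 and 31.4 CPM (2.32-fold, 2.01 to 2.68) and was found in 9.5% against 3.65% of cells. CXCL8, the neutrophil chemokine, went the other way without reaching 2-fold, at 27888 against 44681 CPM (1.60-fold higher with paclitaxel). Because CXCL8 and S100A9 dominate the sum, the whole list totalled 64024 and 63644 CPM.

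Of the 7 complement and innate effector genes, C4A and C1QA were higher and none was lower, beside 14.0% higher among all measured genes. In C1QA 65.4% of the doxorubicin UMIs lay in the 1% of cells richest in it. C4A, a complement component whose reads may include its near-identical copy C4B, was at 600 against 191 CPM (3.14-fold, 2.97 to 3.32), in 47.8% and 30.1% of cells. Outside that list CD14, the co-receptor for bacterial lipopolysaccharide, was at 316 against 85.1 CPM (3.71-fold, 3.42 to 4.04), in 30.3% and 13.7% of cells. LGALS3, a galectin, was 1.78-fold higher in paclitaxel-resistant spheroids (1.74 to 1.82). In treatment-naïve spheroids C4A was at 568 CPM and CD14 at 382 CPM, near the doxorubicin-resistant levels.

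Several genes with the highest ratios of all were carried by few doxorubicin-resistant cells. CCL4, a chemokine of activated leukocytes, had 549 UMIs against 3 UMIs, a ratio of 144 (49.2 to 702), and 6 of the 2558 cells held 522 of the 549. Without the 5 richest doxorubicin-resistant cells, and with all paclitaxel-resistant cells kept, the ratio was 8.94. FCGR3A, an Fc receptor of natural killer cells and macrophages, had 162 UMIs against 1 (ratio 128, 22.6 to 5080), and 1 cell held 116 of them. CCL3 had 1041 UMIs against 20 (41.1-fold, 26.5 to 67.5), with 91.6% of them in the 1% of cells richest in it. Reads of CCL3, CCL4 and FCGR3A may include near-identical copies.

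These cells overlapped in part. Of the 26 cells with more than 5 CCL3 UMIs and the 6 with more than 5 CCL4 UMIs, 2 were the same. The 6 CCL4-rich cells held 326 of the 1041 CCL3 UMIs, at 16145 CPM against 70.5 CPM in the other cells. CCL5 was at 14560 CPM in them and at 1158 CPM in the others, while TNF had 0 UMIs in them. None of the 6 held more than 5 UMIs of TCL1A, CD3D or KRT5. The 6 CCL4-rich cells had a median of 3570.5 UMIs, like the population as a whole. Their ABCB1 level was 1436 CPM, against 6280 CPM in the other cells, from 29 ABCB1 UMIs in all.

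TCL1A and CXCL14 were shared more widely, though still by a minority. TCL1A, a lymphoid AKT coactivator, had 784 UMIs against 9 (68.7-fold, 36.0 to 151) in 9.42% against 0.277% of cells, with at most 33 UMIs in any cell. CXCL14 had 470 UMIs against 8 (46.4-fold, 23.3 to 108.03) in 7.23% and 0.323% of cells. CCNA1, the germ-cell cyclin A1, had 647 UMIs against 23 (22.2-fold, 14.7 to 35.3) in 9.15% and 0.786%. RUNX3, a transcription factor of T cells, rested on 67 UMIs against 1 (ratio 52.9, 9.17 to 2119) and CD244, a receptor of natural killer cells, on 84 against 3 (ratio 22.1, 7.31 to 109). IL1RN, the interleukin 1 receptor antagonist, had 137 UMIs against 15 (7.21-fold, 4.22 to 13.2). GZMA, a granzyme of cytotoxic lymphocytes, had 104 against 27 and FYB, a T cell adaptor now named FYB1, 75 against 22. For genes of so few UMIs the share held by the richest cells is high by construction.

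**Figure D4:**
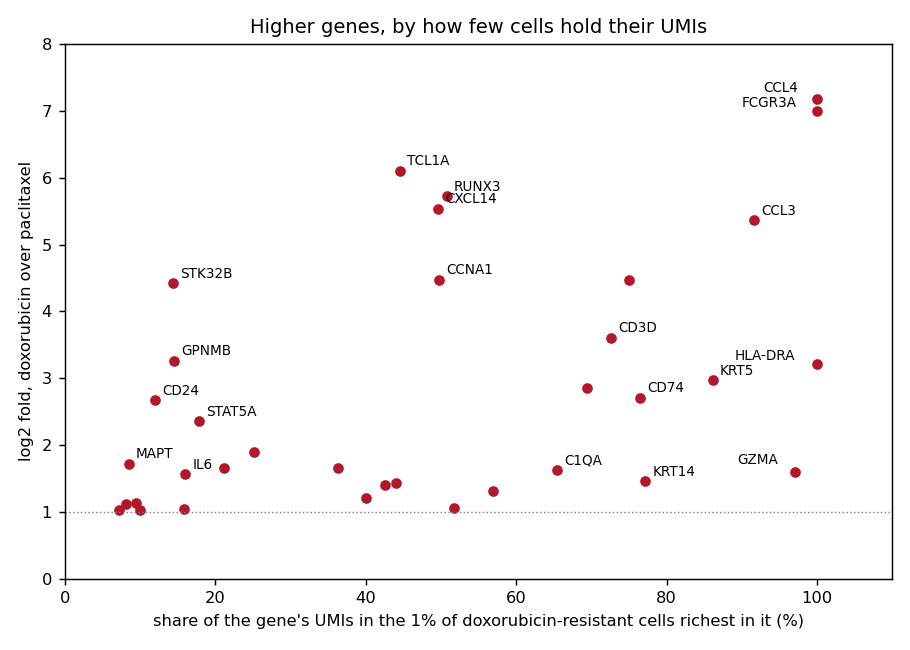
Each point is 1 of the 35 higher genes: on the horizontal axis the percent of its UMIs held by the 1% of doxorubicin-resistant cells richest in it, on the vertical axis its log2 fold, with a dotted line at 2-fold. STK32B, GPNMB and CD24 lie at the left, spread over many cells, and CCL4, FCGR3A and HLA-DRA at the right edge, with all their UMIs in that 1%.

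Over the 35 higher genes, 15 had more than 50% of their doxorubicin UMIs in that richest 1% of cells, 11 had under 20% and 9 lay between. When the 1% of cells richest in each gene were left out of each population, 22 genes were higher and 16 lower, and the 22 were all among the 35. CCL4, FCGR3A, GZMA and HLA-DRA then had 3 UMIs or fewer in both populations. IGFBP5, just outside the rule at 196 against 101 CPM, showed the same feature. Without its 5 richest doxorubicin-resistant cells, and with all paclitaxel-resistant cells kept, the 1.95-fold difference was 1.2-fold. DCN, the matrix proteoglycan decorin, had similar levels of 381 and 348 CPM, but 21.0% of doxorubicin-resistant against 33.3% of paclitaxel-resistant cells held it.

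Blood cell markers were among these minority genes, and several markers of each type had too few UMIs to be measured. Of the T and NK lymphocyte markers 6 of 11 were measured, with CD244 and CD3D higher and PTPRC, the pan-leukocyte antigen CD45, lower. TRAC, LCK and LAG3 were under 2-fold, with 155 against 93, 182 against 227 and 75 against 34 UMIs. Among all measured genes 14.0% were higher and 5.2% lower. CD3D, a T cell receptor subunit, had 478 UMIs against 31 (12.2-fold, 8.46 to 18.1), while PTPRC was at 1.67 CPM. Summed, these lymphocyte markers were at 102 and 57.6 CPM, with all 11 markers of the list above 0 UMIs in both populations. CD3D alone was at 47.0 and 3.86 CPM, and so made up nearly all of the gap between these sums. The 1% of doxorubicin-resistant cells richest in CD3D held 72.6% of its UMIs. Other T and NK cell genes of the panel, looked up after these values were seen, were uneven. CD8A, CD247, NKG7, TIGIT and CTLA4 had 0 UMIs in both populations, and CD3G had 4 UMIs in doxorubicin-resistant and 0 in paclitaxel-resistant cells. IL7R, in contrast, had 1859 against 1159 UMIs and GZMA 104 against 27. Of the 5 B lymphocyte markers only TCL1A and FCRLA were measured, and both were higher. The list had a summed level of 115 against 20.8 CPM, mostly from TCL1A and FCRLA. The unmeasured members went the other way, CD79A with 39 against 46 UMIs, CD38 with 5 against 6 and JCHAIN with 2 against 5. Of the myeloid markers 6 of 9 were measured, with FCGR3A, CD14 and C1QA higher, ITGAX and PTPRC lower, and summed levels of 394 and 145 CPM. In treatment-naïve spheroids the same 3 sums were 93.0, 582 and 437 CPM. CD86 was at 0 UMIs in paclitaxel-resistant spheroids, which allows 3 counts in 8023738. The part of other cell types in these genes was not tested.

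Antigen presentation genes of class II were higher and rare. Of the 9 measured genes of the interferon and antigen presentation list, HLA-DRA, CD74 and CIITA were higher and 0 lower, with a median log2 fold of 0.64. Over all measured genes 14.0% were higher and 5.2% lower, and the median was 0.29. CD74, the invariant chain, had 149 UMIs against 18 (6.53-fold, 3.99 to 11.3). CIITA, the class II transactivator, was at 7.77 against 3.12 CPM (2.49-fold, 1.57 to 4.08), and HLA-DRA had 59 UMIs against 5.

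Genes of proliferation leaned to the doxorubicin side by small amounts. Of 14 measured G1/S genes, 13 had a log2 fold above 0 and 0 were called, with a median of 0.46. All 18 measured G2/M genes were above 0, with a median of 0.36, and only CCNA1 was called. With all genes centred on their median, 11 of the 14 and 15 of the 18 remained above 0. TYMS, thymidylate synthase, was at 3509 against 2373 CPM (1.48-fold, 1.45 to 1.51), CEP55 of the midbody at 1413 against 940 CPM (1.5-fold, 1.46 to 1.55), and CCNE2, cyclin E2, at 97.7 and 98.1 CPM. UBE2C, a ubiquitin-conjugating enzyme of the anaphase-promoting complex, was at 3143 against 2614 CPM (1.2-fold, 1.18 to 1.22). Its level rose with depth, and its log2 fold was 0.010 at 1000 to under 2500 UMIs per cell. At 2500 to under 5000 UMIs it was 0.46, and at 5000 or more 0.050. CENPA was at -0.12, 0.26 and 0.13 in these classes. TYMS, at 0.81, 0.62 and 0.41, and CEP55, at 0.65, 0.62 and 0.44, stayed above 0. The part of depth in this lean was not tested.

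Of the 16 measured genes of DNA damage, p53 and apoptosis 0 were called. BCL2L11, the death inducer BIM, was at 127 against 75.4 CPM (1.68-fold, 1.53 to 1.86), and MDM2, the p53 ligase, at 79.9 against 51.8 CPM. BCL2, the survival factor, was at 21.9 against 34.3 CPM, with a log2 fold of -0.64. The median of the list, 0.31, was close to the 0.29 of all measured genes.

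Mesenchymal and matrix genes leaned to the paclitaxel side. Of 25 measured members only 7 were above 0, the median log2 fold was -0.44, and 1 was higher and 2 lower. Among all 250 measured genes 173 were above 0, the median was 0.29, and 14.0% were higher and 5.2% lower. PLAU, the urokinase protease, was the only member called higher, at 10017 against 4623 CPM (2.17-fold, 2.14 to 2.19) in doxorubicin-resistant spheroids. COL1A1 was also above 0, at 2708 against 2334 CPM, without reaching 2-fold. VIM hardly differed, at 130531 and 134954 CPM, and FN1 had a log2 fold of -0.32. The summed list was at 347919 CPM against 437147 CPM, a ratio of 1.26 in favour of paclitaxel resistance. Abundant members weigh most in this sum, with LGALS1 alone at 107708 against 151734 CPM.

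Basal epithelial genes were divided. Of 10 measured, KRT5, CDH3 and KRT14 were higher and MME lower, with a median log2 fold of 0.43. Over all measured genes 14.0% were higher and 5.2% lower, and the median was 0.29. KRT5, a basal keratin, was at 51.6 against 6.61 CPM (7.82-fold, 5.89 to 10.6), but 323 of its 525 UMIs lay in 5 cells. KRT14, whose reads may mix with other type I keratins, was 2.75-fold higher (2.34 to 3.25). Without its 5 richest doxorubicin-resistant cells, and with all paclitaxel-resistant cells kept, the ratio was 1.29. The 5 richest paclitaxel-resistant cells held 91 of the 194 KRT14 UMIs of that population, 72 of them in 1 cell. CDH3, the P-cadherin, was at 27.6 against 8.72 CPM in 7.19% and 2.59% of cells. In treatment-naïve spheroids these 3 genes stood far above both, at 479, 3032 and 237 CPM.

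Of 15 measured luminal genes CD24 and ERBB3 were higher and 0 lower, near the 14.0% of all measured genes that were higher, with a median log2 fold of 0.28. ERBB3 rested on 58 against 22 UMIs, was under 2-fold in 7 of 10 alternatives and had a log2 fold of -0.083 in cells of 1000 to under 2500 UMIs. FOXA1, a luminal transcription factor, was at 25.5 against 15.3 CPM (1.66-fold, 1.34 to 2.08). Of the 11 adhesion genes, CDH3 and ALCAM were higher and CDH6 and VCAM1 lower, with a median of 0.26. Of the 6 measured stem cell markers CD24 and ALCAM were higher, with a median of 0.57. Of the 10 nucleotide and drug metabolism enzymes only SPHK1, sphingosine kinase 1, was higher, at 1466 against 718 CPM (2.04-fold, 1.98 to 2.11), with a median of 0.29. GSTP1, which conjugates drugs with glutathione, was at 21801 against 14847 CPM. The 4 genes of the insulin-like growth factor axis had a median of 0.061 and 0 calls, and IGFBP7 was at 2909 and 3542 CPM.

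**Figure D5:**
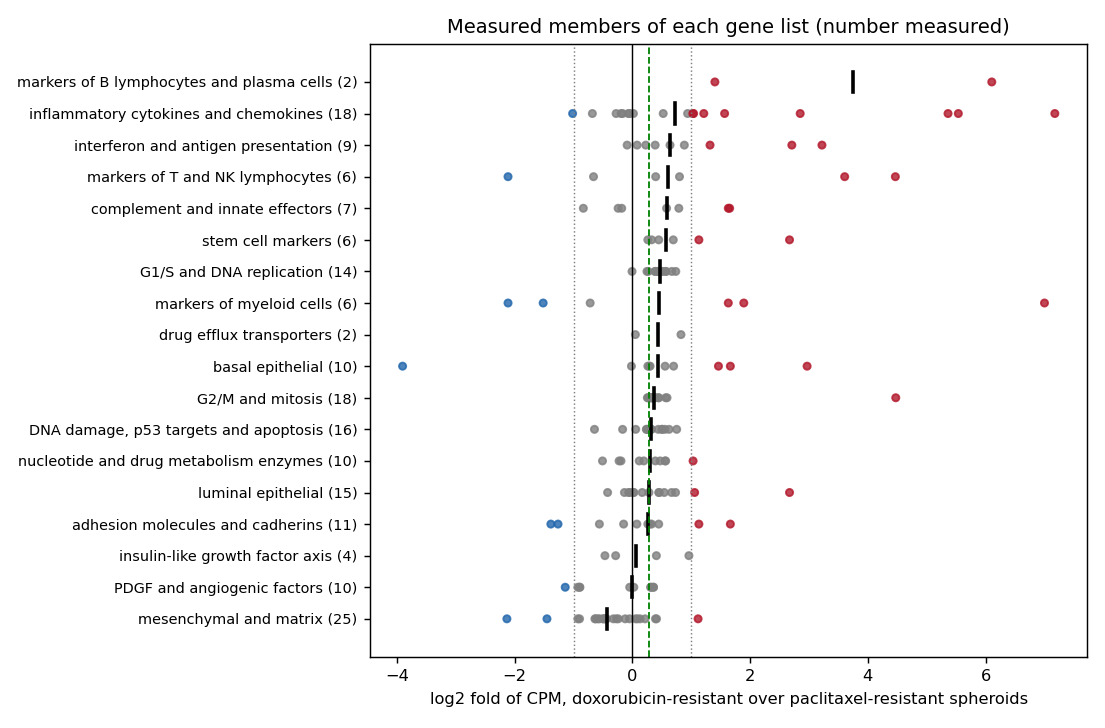
Each point is a measured member of a gene list, placed by its log2 fold, doxorubicin-resistant over paclitaxel-resistant spheroids, with the list median as a black bar and the median of all measured genes as a dashed line. Red and blue points are at least 2-fold higher or lower. The mesenchymal list has the lowest median (-0.44), and several lists hold members on both sides.

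Set against treatment-naïve spheroids, the differences between the drugs were of several kinds. Of the 35 higher genes, 13 were at least as high in treatment-naïve cells as in doxorubicin-resistant ones, among them PLAU, STAT5A and S100A9, 10 were no higher there than in paclitaxel-resistant cells, among them GPNMB, STK32B and CXCL14, and 12 lay between. Of the 13 lower genes, COL3A1 and C10orf54 were highest in treatment-naïve cells, PDGFB, CDH6, SLIT2 and PTPRC were lowest there, and 7 lay between. These positions describe 3 single populations.

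Attached cells of the same resistant lines, run on another cartridge, gave 36 higher (13.8%) and 26 lower genes (9.96%) of 261 measured, 23.8% in either direction. Of the 35 genes higher in spheroids, 21 were also called higher in attached cells, which is 60% of the spheroid and 58.3% of the attached list. Of the 13 lower genes 9 were called lower, 69.2% of the one list and 34.6% of the other. The compared lines are the same in both cultures, so this is no independent replicate. GPNMB had log2 folds of 3.26 in spheroids and 2.94 in attached cells, STK32B 4.42 and 4.84, and MME -3.90 and -2.81. CD24 was 6.36-fold higher in spheroids but had a log2 fold of only 0.79 in attached cells, where 97.0% and 85.8% of the cells held it. MAPT likewise had 1.72 and 0.60, and CD14 and C4A, at 1.89 and 1.65 in spheroids, were at -0.46 and -0.62 in attached cells. C1QA, the first chain of complement C1q, was the only gene called in opposite directions.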

How the data were processed

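Single-cell transcripts were read on BD Rhapsody cartridges with a targeted panel of breast cancer genes. The authors deposited counts, as UMIs per gene and cell adjusted by the RSEC method, in 1 matrix per population; the submitters' notes name hg38, and cell filters before deposit are not given in the sources used here. Cells with at least 1000 UMIs were kept, UMIs were summed per gene and scaled to CPM by the total of the kept cells. Ratios carry exact conditional binomial, CPM exact Poisson and shares of cells exact Clopper-Pearson 95% intervals. A call needed 2-fold and 50 UMIs in the higher population, and a count of 0 was read as at most 3 counts. No doublet caller was run, and edgeR was not used because populations were unreplicated. Genes were named as the 15 largest in each direction, the 2 highest and 2 lowest members of each of 18 lists, and genes the study singles out; other called genes were added after their values were seen, and some genes that the rule names are left out. The members and lists were chosen with earlier results of these data known. Coordinates and promoters are from RefSeq (GRCh38.p14). The comparison was tested on simulated data. Python 3.11.15, numpy 2.4.6, scipy 1.17.1 and pandas 2.3.3 were used.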

Additional observations from a re-analysis of the deposited data

Results flagged for a closer look

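C1QA had a log2 fold of 1.63 between doxorubicin-resistant and paclitaxel-resistant cells in spheroids and of -1.48 in attached cells, so it was called higher in one culture and lower in the other. It rested on 384 against 98 UMIs in spheroids and on 37 against 82 in attached cells. The difference between the cultures was not tested, because each population existed once.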

How the results depend on the processing

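The counts of 35 higher and 13 lower genes and the median log2 fold of 0.29 depended on the scaling. Unscaled UMI totals gave 56 higher and 6 lower genes with a median of 0.63, scaling by the median gene ratio gave 28 and 21 with a median of 0, and CPM without the 5 most abundant genes gave 31 and 17 with a median of 0.17. Thinning each cell to 1000 UMIs gave 21 and 17 genes, asking for 50 UMIs in both populations gave 18 and 11, and dropping the minimum gave 52 and 26. Leaving out the 1% of cells richest in each gene, an alternative chosen after seeing the data, gave 22 and 16. Using all barcodes, a minimum of 2000 UMIs per cell, the mean of each cell's CPM, the populations without their deepest 1% of cells, a minimum of 200 UMIs, or only cells with an ABCB1 UMI kept every one of these values within 1.5 times. Of the called genes, CDH3 and ERBB3 turned direction in cells of 1000 to under 2500 UMIs, with log2 folds of -0.19 and -0.083. The cause was not tested. With the richest 1% of cells left out, CCL4, FCGR3A, GZMA and HLA-DRA had too few UMIs for a fold. No paired analysis was possible because each population existed once and no test was run. For the same reason no replicate could be left out. Single populations cannot show the spread between cultures, and genes of few UMIs are limited by counting.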
